A study of Mus musculus with 47 samples.

Results

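The 7 milk fat globule genes were Btn1a1, Xdh, Mfge8, Plin2, Cidea, Muc1 and Cd36. They were chosen by gene symbol (listed there as BTN1A1, XDH, MFGE8, PLIN2, CIDEA, MUC1 and CD36), and all 7 were found among the 22007 symbols of the deposited table. RNA was sequenced from sorted mammary cells of ovariectomized mice of the FVB strain, treated for 14 days. The 4 treatments were estradiol and progesterone with telapristone acetate (EP+TPA), estradiol and progesterone with mifepristone (EP+RU486), estradiol and progesterone alone (EP), and a sham treatment. Both added drugs are steroidal antagonists of the progesterone receptor, and the labels give neither doses nor ages. The sorted fractions were labelled luminal mature (LM), luminal progenitor (LP) and mammary stem cell (MSC). From 20 mice, 47 libraries were made. Each of the 12 groups held 4 mice, apart from the EP group of LM with 3. Many mice gave more than 1 fraction, so results in different fractions are not independent of each other. All groups share the removal of the ovaries, so the sham mice lacked their main source of ovarian hormones.

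Milk fat leaves the secretory cell of the mammary gland as a lipid droplet wrapped in apical plasma membrane. Perilipin 2 (Plin2) coats the droplet inside the cell, and Cidea, a protein of droplet contact and fusion, takes part in its growth and secretion. Butyrophilin (Btn1a1) in the apical membrane and xanthine oxidoreductase (Xdh) beneath it are held to link droplet and membrane, and mice short of either protein release milk fat abnormally. Mfge8, also called lactadherin, is a secreted protein of the globule surface that binds phosphatidylserine, also on dying cells. Muc1 is a transmembrane mucin of the apical surface. Cd36 is a receptor for long-chain fatty acids, and capillary endothelial cells and adipocytes are rich in it as well.

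The promoters of Mfge8, which moved in both luminal fractions, and of Muc1, which moved in LP with EP, are printed because they differ in their core elements. The 250 bases before each start site were taken from RefSeq on GRCm38.p6, at chr7:79149061-79149310 on the minus strand for Mfge8 and at chr3:89228806-89229055 on the plus strand for Muc1. Capitals mark the GC box GGGCGG on either strand and the TATA box TATAAA.
Mfge8: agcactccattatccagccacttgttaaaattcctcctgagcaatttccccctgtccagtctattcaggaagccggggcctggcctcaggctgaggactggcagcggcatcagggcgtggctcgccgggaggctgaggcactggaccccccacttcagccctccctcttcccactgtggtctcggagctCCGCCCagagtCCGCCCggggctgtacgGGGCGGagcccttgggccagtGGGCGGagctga
Muc1: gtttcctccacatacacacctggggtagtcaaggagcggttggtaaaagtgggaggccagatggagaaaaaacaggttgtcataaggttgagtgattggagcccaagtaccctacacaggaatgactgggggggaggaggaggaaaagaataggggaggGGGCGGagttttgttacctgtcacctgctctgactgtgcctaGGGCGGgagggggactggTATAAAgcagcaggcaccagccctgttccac

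Mfge8 held 4 GC boxes and no TATA box in this window, and Muc1 held 2 GC boxes and 1 TATA box. Of 32851 promoters of the same length, 32.7% held a GC box and 12.4% a TATA box on either strand. Neither TTCNNNGAA, the core of STAT5 sites, nor AGAACA, a core element bound by the progesterone and glucocorticoid receptors, was present in the windows of Mfge8, Muc1, Plin2 or Cd36. These were held by 7.02% and 16.1% of the promoters, on either strand.

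The deposited values were on the scale of FPKM, a measure of read density relative to transcript length and library size, and they carried an extra shift for each gene within 3 sets of libraries. The LM libraries were the first set, and the LP libraries shared the second with 6 MSC libraries. The other 10 MSC libraries were the third set. The lowest value of a gene in a set can therefore be an offset and not expression: Cd36 had no value under 44.1 in LP or under 84.1 in LM. A value listed at 0 can be a level under that shift. Levels of LM were not set against those of LP or MSC, and read depth could not be recovered. Values below are as deposited, and folds and p-values come from values rescaled within a set. In each fraction, 1 fit of log2(value + 1) by limma held its 4 treatments, and p-values were adjusted over all genes tested.

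Before the results on LM, 2 departures from its label have to be stated. Foxa1 and Prlr, which define hormone-sensing luminal mature cells, were listed at 0 in 4 of 4 EP+RU486 libraries and in 3 of 4 EP+TPA libraries of LM. In the EP libraries of LM, Foxa1 was at 15.3 to 41.2 and Prlr at 111 to 221. In the sham libraries of LM, Foxa1 was at 10.3 to 67.6 and Prlr at 172 to 515. Above their lowest values, 15 luminal mature markers summed in LM to 1236 to 4886 with EP+TPA and 32.4 to 1566 with EP+RU486. The sums were 2152 to 6321 with EP and 4700 to 6495 with sham, so EP+TPA overlapped with both and EP+RU486 with neither. The EP+TPA library of LM from mouse 332 stood apart from the other 3 of its group. Its sum of 16 proliferation genes above their lowest values was 318, against 29.5 to 41.1 in the other 3 EP+TPA libraries. Its sum of 15 luminal progenitor markers was 344, against 6797 to 7838 in them. The EP libraries of LM had proliferation sums of 112 to 429 and luminal progenitor sums of 273 to 474. Results on EP+TPA in LM are given with and without mouse 332. This mouse was singled out from values of these same data, so p-values without it are descriptive.

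In luminal progenitors, EP lowered 6 of the 7 milk fat globule genes against sham at an adjusted p under 0.05, where 15.6% of the 11404 genes tested were lower and 17.5% higher. The median log2 fold over the 7 genes was -1.81, and over all genes tested it was 0.02. Btn1a1 fell furthest. It was at 16.3, 52.1, 15.8 and 9.77 in EP mice, against 197, 219, 178 and 173 in sham mice. Every EP value lay below every sham value, and the log2 fold was -3.39 ± 0.36 (SE, adjusted p = 9.12e-06).

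Xdh, its partner at the membrane, was at 8.62, 14.8, 5.44 and 4.99 in LP of EP mice, against 13.3, 67.8, 57.8 and 21.0 in sham mice. The sham mice were widely spread, and 1 of them lay below the highest EP mouse. The log2 fold was -2.19 ± 0.53 (SE, adjusted p = 0.00574). Mfge8 was the most abundant of the 7 genes on this scale. It was at 847, 1567, 922 and 545 in EP mice, against 3364, 1983, 3375 and 2652 in sham mice. The groups did not overlap, and the log2 fold was -1.90 ± 0.28 (SE, adjusted p = 0.000111).

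The genes of the droplet itself fell with EP as well. Plin2 was at 133, 248, 108 and 79.6 in LP of EP mice, against 327, 359, 437 and 388 in sham mice. Cidea was at 1.14, 1.31, 1.26 and 0.462 in EP mice, against 6.14, 2.92, 6.69 and 5.05 in sham mice. Neither gene overlapped between these groups. The log2 folds were -1.81 ± 0.27 for Plin2 (SE, adjusted p = 0.000152) and -1.66 ± 0.28 for Cidea (SE, adjusted p = 0.000431). Muc1 was at 20.4, 26.1, 19.8 and 5.79 in EP mice, against 52.3, 25.7, 36.1 and 30.8 in sham mice. The highest EP mouse and the lowest sham mouse were nearly level, and the log2 fold was -1.35 ± 0.32 (SE, adjusted p = 0.00479).

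Cd36 did not move with the others. It was at 46.0, 60.4, 44.2 and 83.1 in LP of EP mice, against 44.4, 45.3, 45.6 and 45.0 in sham mice, and did not pass the test (adjusted p = 0.139). All but 2 of these values lay within a few units of the offset. The EP libraries of mice 327 and 311, at 83.1 and 60.4, also had summed levels of 16 endothelial markers of 808 and 223, against 80.3 and 12.5 in the other 2 EP libraries. The part of these markers in the Cd36 values was not tested.

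**Figure D1:**
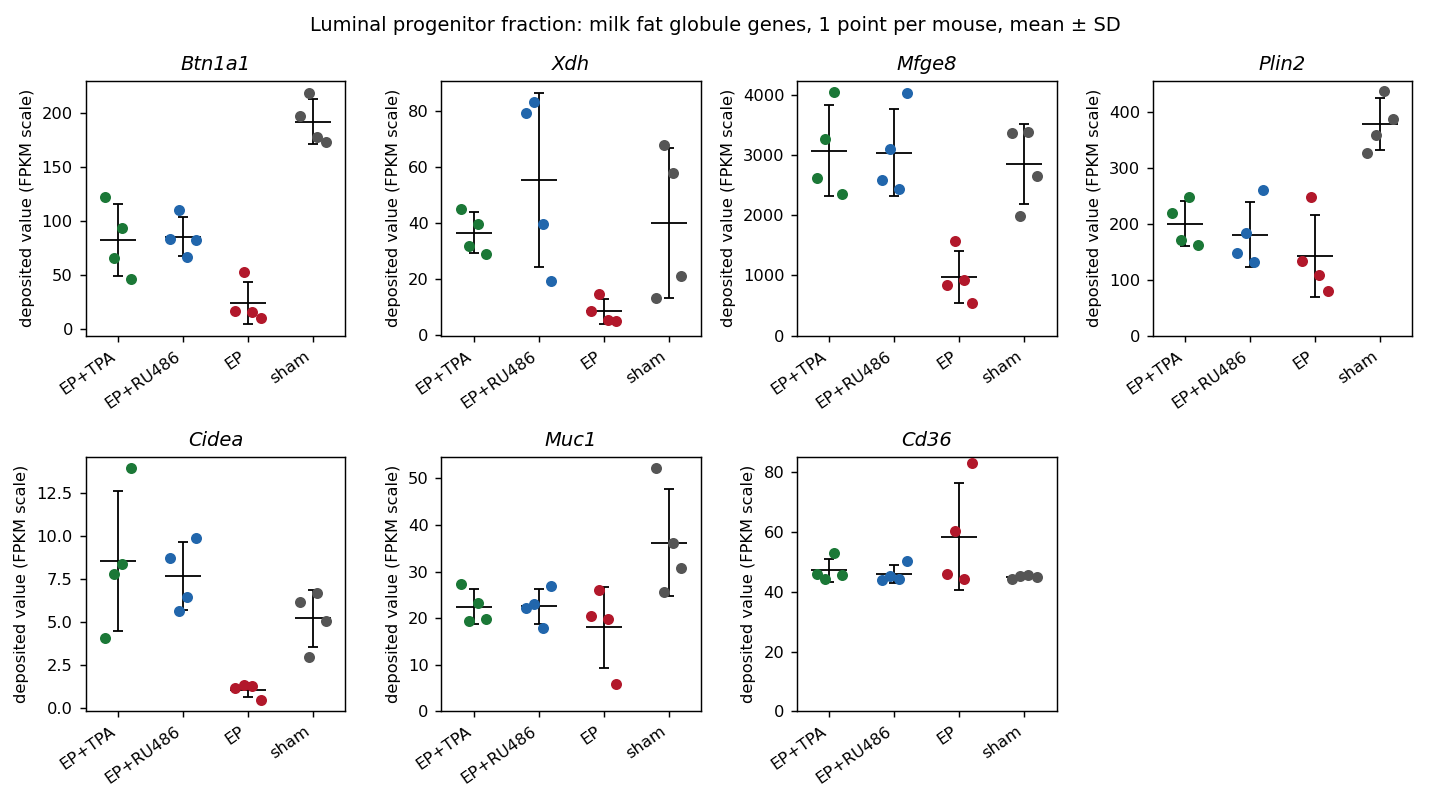
Deposited values (FPKM scale, linear axes) of the 7 milk fat globule genes in the luminal progenitor fraction, by treatment. Points are mice, and bars are mean ± SD over 4 mice. Btn1a1, Xdh, Mfge8 and Cidea are low in EP and higher in EP+TPA and EP+RU486, whereas Plin2 stays below its sham values of 327 to 437 in all 3 hormone-treated groups.

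With either antagonist added, 4 of the 7 genes were higher than with EP alone in LP: Btn1a1, Xdh, Mfge8 and Cidea. Of all genes tested, 7.51% were higher and 11% lower in EP+TPA, and 8.97% were higher and 12.2% lower in EP+RU486. The median log2 fold over the 7 genes was 1.90 for EP+TPA and 1.83 for EP+RU486, against -0.01 and -0.03 over all genes tested. The 2 contrasts share the EP libraries and, with the contrast of EP against sham, are not independent.

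Btn1a1 was at 122, 65.3, 93.7 and 46.1 with EP+TPA and at 82.8, 109.9, 66.1 and 82.5 with EP+RU486. The highest EP library, at 52.1, overlapped with the lowest EP+TPA library and with no EP+RU486 library. The log2 fold over EP was 1.98 ± 0.36 with EP+TPA (SE, adjusted p = 0.00159) and 2.05 ± 0.36 with EP+RU486 (SE, adjusted p = 0.0012). Xdh was at 45.2, 31.9, 39.8 and 29.1 with EP+TPA and at 79.4, 83.4, 39.9 and 19.2 with EP+RU486, all above the EP libraries. Its log2 fold over EP was 2.21 ± 0.53 with EP+TPA (SE, adjusted p = 0.00947) and 2.55 ± 0.53 with EP+RU486 (SE, adjusted p = 0.0038).

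Mfge8 was at 2611, 3265, 4052 and 2353 with EP+TPA and at 2591, 3099, 2443 and 4028 with EP+RU486, with no overlap with EP. Its log2 fold over EP was 1.90 ± 0.28 with EP+TPA (SE, adjusted p = 0.000227) and 1.83 ± 0.28 with EP+RU486 (SE, adjusted p = 0.000318). Cidea was at 4.03, 7.75, 8.35 and 13.9 with EP+TPA and at 8.71, 5.60, 6.46 and 9.85 with EP+RU486, again with no overlap with EP. Its log2 fold over EP was 2.12 ± 0.28 with EP+TPA (SE, adjusted p = 0.00011) and 2.01 ± 0.28 with EP+RU486 (SE, adjusted p = 0.00019).

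Plin2 and Muc1 did not pass the test against EP with either drug in LP. Plin2 was at 219, 170.4, 247 and 162 with EP+TPA and at 147, 183, 131 and 261 with EP+RU486, and the EP library of mouse 311, at 248, lay within or above both ranges. Its log2 fold over EP was 0.76 with EP+TPA (95% interval 0.18 to 1.33, adjusted p = 0.0657) and 0.52 with EP+RU486 (95% interval -0.05 to 1.10, adjusted p = 0.192). This call rested on mouse 311: without it the log2 folds were 1.07 with EP+TPA and 0.84 with EP+RU486, and both passed. Muc1 was at 27.4, 19.5, 23.2 and 19.8 with EP+TPA and at 22.2, 23.0, 18.0 and 27.0 with EP+RU486. Its log2 fold over EP was 0.61 with EP+TPA (95% interval -0.08 to 1.29, adjusted p = 0.221) and 0.56 with EP+RU486 (95% interval -0.13 to 1.24, adjusted p = 0.247).

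Against sham, Btn1a1 and Plin2 stayed lower in LP with both antagonists. This was 2 of the 7 genes in each contrast, where 3.42% of all genes tested were lower with EP+TPA and 6.34% with EP+RU486. Plin2 had a log2 fold of -1.05 ± 0.27 with EP+TPA (SE, adjusted p = 0.035) and of -1.28 ± 0.27 with EP+RU486 (SE, adjusted p = 0.00723). Btn1a1 had a log2 fold of -1.41 ± 0.36 with EP+TPA (SE, adjusted p = 0.0353) and of -1.33 ± 0.36 with EP+RU486 (SE, adjusted p = 0.0288). For both genes, all antagonist values lay below all sham values. With EP+TPA both calls were lost without rescaling and without the filter on low values. The Plin2 call was lost without any 1 of the 8 libraries, and the Btn1a1 call without any of them but EP+TPA mouse 312. With EP+RU486 the Btn1a1 call was lost without rescaling (log2 fold -1.18, adjusted p = 0.0533) and on leaving out any 1 of 6 libraries (EP+RU486 mice 304, 324 and 329, sham mice 301, 305 and 310). The Plin2 call with EP+RU486 was kept without any 1 library and in the other settings.

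Xdh, Mfge8, Cidea and Muc1 did not pass against sham with either antagonist in LP. For Mfge8 the log2 fold against sham was -0.01 with EP+TPA (95% interval -0.60 to 0.58) and -0.08 with EP+RU486 (95% interval -0.66 to 0.51). For Cidea it was 0.46 with EP+TPA (95% interval -0.14 to 1.06) and 0.35 with EP+RU486 (95% interval -0.25 to 0.95). The sign for Mfge8 turned without rescaling (0.11 and 0.10), with all 4 values near 0. For Muc1, the log2 fold was -0.75 with EP+TPA (95% interval -1.43 to -0.06) and -0.80 with EP+RU486 (95% interval -1.48 to -0.11), with adjusted p = 0.215 for EP+TPA and 0.131 for EP+RU486. With the EP+RU486 and sham groups fitted alone, Muc1 passed (adjusted p = 0.0193). Cd36 was at 44.2 to 52.9 with EP+TPA and at 44.1 to 50.3 with EP+RU486, near its offset, and passed against neither EP nor sham.

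**Figure D2:**
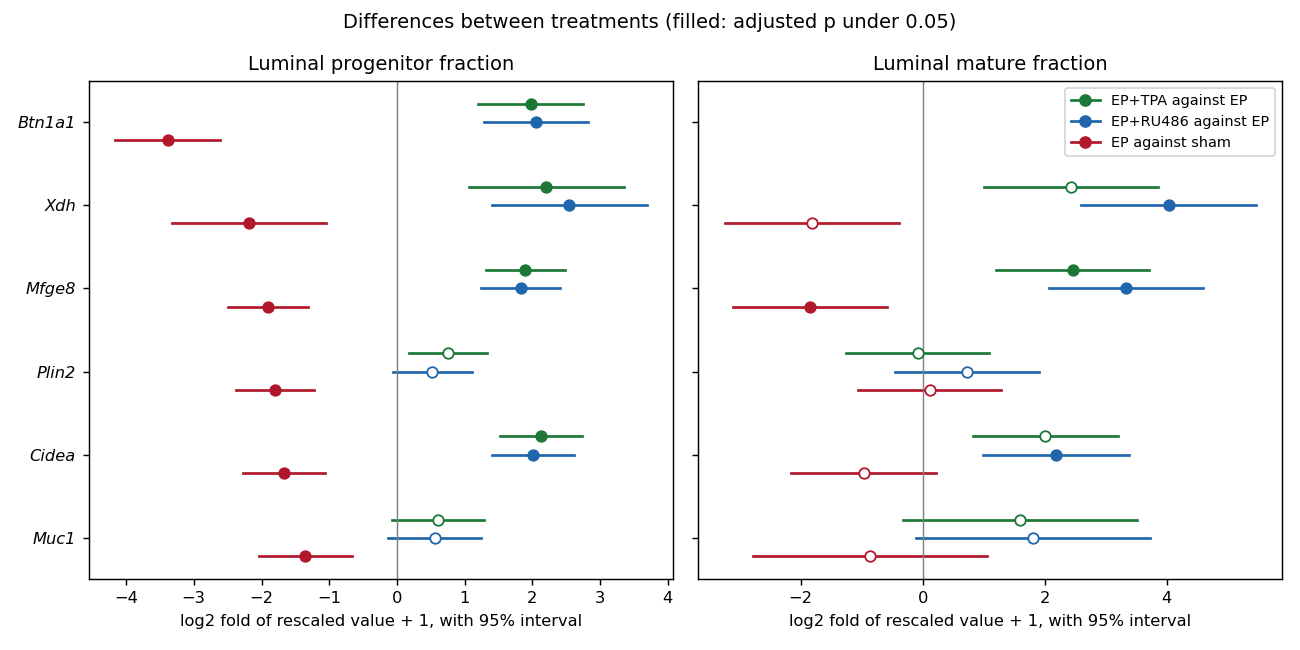
Log2 folds of rescaled value + 1, with 95% intervals, for 6 milk fat globule genes in LP (left) and LM (right), in 3 contrasts of treatments. Filled points passed an adjusted p under 0.05; Cd36 is left out, and so is Btn1a1 in LM, where the EP libraries are listed at 0. In LP, EP against sham lies left of 0 for all 6 genes, from -3.39 to -1.35.

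Other markers moved with these genes in LP. Of 15 luminal progenitor markers, 11 were lower and 1 was higher in EP than in sham, 10 were higher and 1 lower in EP+TPA than in EP, and likewise 10 and 1 in EP+RU486. Their summed level was 6243 to 7878 with EP+TPA, 6086 to 7597 with EP+RU486, 182 to 3432 with EP and 6163 to 11098 with sham. The EP library of mouse 311, the highest of its group in Btn1a1, Xdh, Mfge8, Plin2, Cidea and Muc1, was also the highest in this sum. Of 15 luminal mature markers, 5 were higher and 4 lower in EP than in sham, 12 were lower and 0 higher in EP+TPA than in EP, and 11 were lower and 0 higher in EP+RU486 than in EP. Their summed level in LP was 1894 to 4215 with EP+TPA, 1663 to 3131 with EP+RU486, 2534 to 4995 with EP and 4040.04 to 7678 with sham. Foxa1, which marks luminal mature cells, was at 2.43 to 3.84 in LP with EP+TPA and at 2.78 to 4.61 with EP+RU486. It was at 6.45 to 72.6 with EP and at 6.77 to 16.1 with sham. Its lowest value in this set was 2.02, in an MSC library, so its presence in LP with the antagonists is not shown. Prlr in LP was at 30.7 to 40.8 with EP+TPA, 38.2 to 70.4 with EP+RU486, 49.7 to 484 with EP and 92.9 to 191 with sham. The lowest Prlr value in this set was 13.5, also in an MSC library. Mouse 311 was the lowest EP mouse in Foxa1, in Prlr and in the luminal mature sum. All 16 proliferation genes moved the other way: higher in EP than in sham, and lower with either antagonist than with EP. The part of these markers in the results on milk fat globule genes was not tested. In sorted cells sequenced in bulk, fewer cells of a type and less RNA per cell cannot be told apart.

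**Figure D3:**
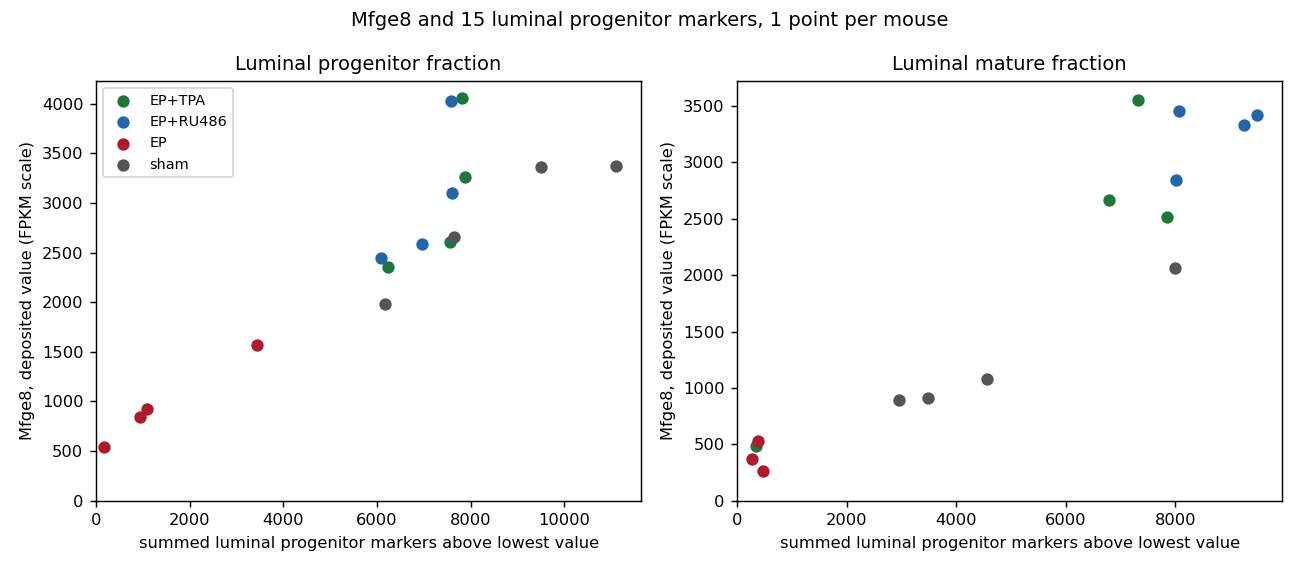
Deposited Mfge8 (FPKM scale) against the summed level of 15 luminal progenitor markers above their lowest values, in LP (left) and LM (right). Points are mice, coloured by treatment. The EP mice lie at the lower left in both fractions, with the EP+TPA library of mouse 332 among them in LM at a sum of 344 and an Mfge8 value of 482.

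In the luminal mature fraction, EP lowered Btn1a1 and Mfge8 against sham, 2 of the 7 genes, where 9.41% of the 11882 genes tested were lower and 10.3% higher. Btn1a1 was listed at 0 in all 3 EP mice, against 118, 62.3, 30.3 and 53.0 in sham mice, so that no fold is given (adjusted p = 0.0088). Mfge8 was at 527, 260.2 and 375 in EP mice, against 2061, 914, 1077 and 895 in sham mice. The groups did not overlap, and the log2 fold was -1.85 ± 0.58 (SE, adjusted p = 0.0404). This call was lost without the filter on low values and without any 1 of the 7 libraries other than sham mouse 305.

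Xdh in LM was at 2.59, 1.40 and 5.15 in EP mice, against 21.2, 5.53, 12.4 and 8.73 in sham mice. The groups did not overlap, yet the log2 fold of -1.81 ± 0.66 did not pass (SE, adjusted p = 0.0704). It passed with the 2 groups fitted alone (adjusted p = 0.0282). Cidea was at 0.758, 0.628 and 0.984 in EP mice, against 5.23, 0.853, 2.50 and 1.64 in sham mice, and Plin2 at 83.7, 194 and 235, against 123, 138, 123 and 117. Both overlapped, and neither passed. The log2 fold of Plin2 was 0.11 (95% interval -1.06 to 1.29, adjusted p = 0.908). Muc1 was at 25.8, 0.190 and 13.9 in EP mice, against 41.7, 9.09, 7.41 and 5.23 in sham mice, with 1 very low EP mouse and 1 high sham mouse (adjusted p = 0.538). Cd36 was at 97.7, 93.1 and 89.6 in EP mice, against 103, 88.5, 126 and 97.5 in sham mice (adjusted p = 0.427).

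With EP+RU486 the same 4 genes as in LP were higher than with EP in LM, where 8.81% of all genes tested were higher and 9.28% lower. The median log2 fold over the 7 genes was 2.19, against -0.0039 over all genes tested. Btn1a1 was at 111, 205, 93.2 and 92.3 with EP+RU486, against 0 in all 3 EP mice (adjusted p = 0.00513). Xdh was at 80.2, 88.4, 24.4 and 46.6, all above the EP mice, with a log2 fold of 4.03 ± 0.66 (SE, adjusted p = 0.00244). Mfge8 was at 2846, 3329, 3456 and 3419.9, with a log2 fold of 3.33 ± 0.58 (SE, adjusted p = 0.00312). Cidea was at 7.83, 3.27, 6.99 and 9.54, with a log2 fold of 2.19 ± 0.56 (SE, adjusted p = 0.0158). For these 4 genes no EP+RU486 mouse overlapped with an EP mouse, and the 4 calls held without any 1 library and in the other settings. The share of all genes tested without such overlap was not computed.

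Plin2, Muc1 and Cd36 did not pass between EP+RU486 and EP in LM. Plin2 was at 148, 380.1, 250.3 and 180.3 with EP+RU486 (log2 fold 0.72, 95% interval -0.45 to 1.90, adjusted p = 0.376). Muc1 was at 18.6, 42.4, 21.5 and 15.3 (log2 fold 1.81, 95% interval -0.11 to 3.72, adjusted p = 0.171). Cd36 was at 94.6 to 139 (adjusted p = 0.344).

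Xdh was the 1 gene of the 7 that was higher with EP+RU486 than with sham in LM, at a log2 fold of 2.22 ± 0.62 (SE, adjusted p = 0.0212), where 10.1% of all genes tested were higher. This call was lost on leaving out any 1 of EP+RU486 mice 308 and 313 and sham mice 305 and 326. Mfge8, at 2846 to 3456 with EP+RU486 against 895 to 2061 with sham, did not overlap between the groups but missed the threshold (log2 fold 1.49 ± 0.54 SE, adjusted p = 0.0653). With the 2 groups fitted alone, 4 of the 7 genes passed: Xdh, Mfge8, Plin2 and Cidea. Without sham mouse 301, 3 passed: Xdh, Mfge8 and Cidea.

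With EP+TPA in LM, 1 of the 7 genes, Mfge8, was higher than with EP, where 1.26% of all genes tested were higher. Mfge8 was at 2515, 3557, 482 and 2669 with EP+TPA, where 482 is mouse 332, against the 3 EP values up to 527. The log2 fold was 2.46 ± 0.58 (SE, adjusted p = 0.0324), and it was lost with the 2 groups fitted alone and without any 1 of the 7 libraries other than mouse 332. Without mouse 332, 5 of the 7 genes were higher, as were 9.62% of all genes tested. Mfge8 then had a log2 fold of 3.16 (adjusted p = 8.29e-06), Xdh of 3.06 (adjusted p = 0.0013), Cidea of 2.49 (adjusted p = 0.00255) and Cd36 of 0.79 (adjusted p = 0.0394). Btn1a1 was called without mouse 332 as well (adjusted p = 1.28e-06), at 146, 76.1 and 44.2 in the other 3 EP+TPA mice and 0 in mouse 332. In LM no offset was taken off Mfge8, Xdh, Cidea or Cd36 before rescaling, so their folds can carry a rescaled shift.

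Xdh was at 33.9, 18.9, 4.57 and 29.8 with EP+TPA in LM, and Cidea at 4.10, 9.31, 1.72 and 14.1, with mouse 332 the lowest in both. With all 4 EP+TPA mice, Xdh (adjusted p = 0.0533), Cidea (adjusted p = 0.0535) and Btn1a1 (adjusted p = 0.0555) came close to the threshold against EP without passing it. Plin2 was at 228, 273, 48.1 and 103 and Muc1 at 26.7, 20.7, 17.6 and 16.7, and neither passed against EP with or without mouse 332. Against sham, 0 of the 7 genes passed by limma with EP+TPA in LM, and 0 had an unadjusted p under 0.05, while 16.3% of all genes tested were called in either direction. Without mouse 332, Mfge8 (log2 fold 1.31, adjusted p = 0.00692) and Cidea (log2 fold 1.53, adjusted p = 0.0319) were higher than in sham, where 7.33% of all genes tested were higher.

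**Figure D4:**
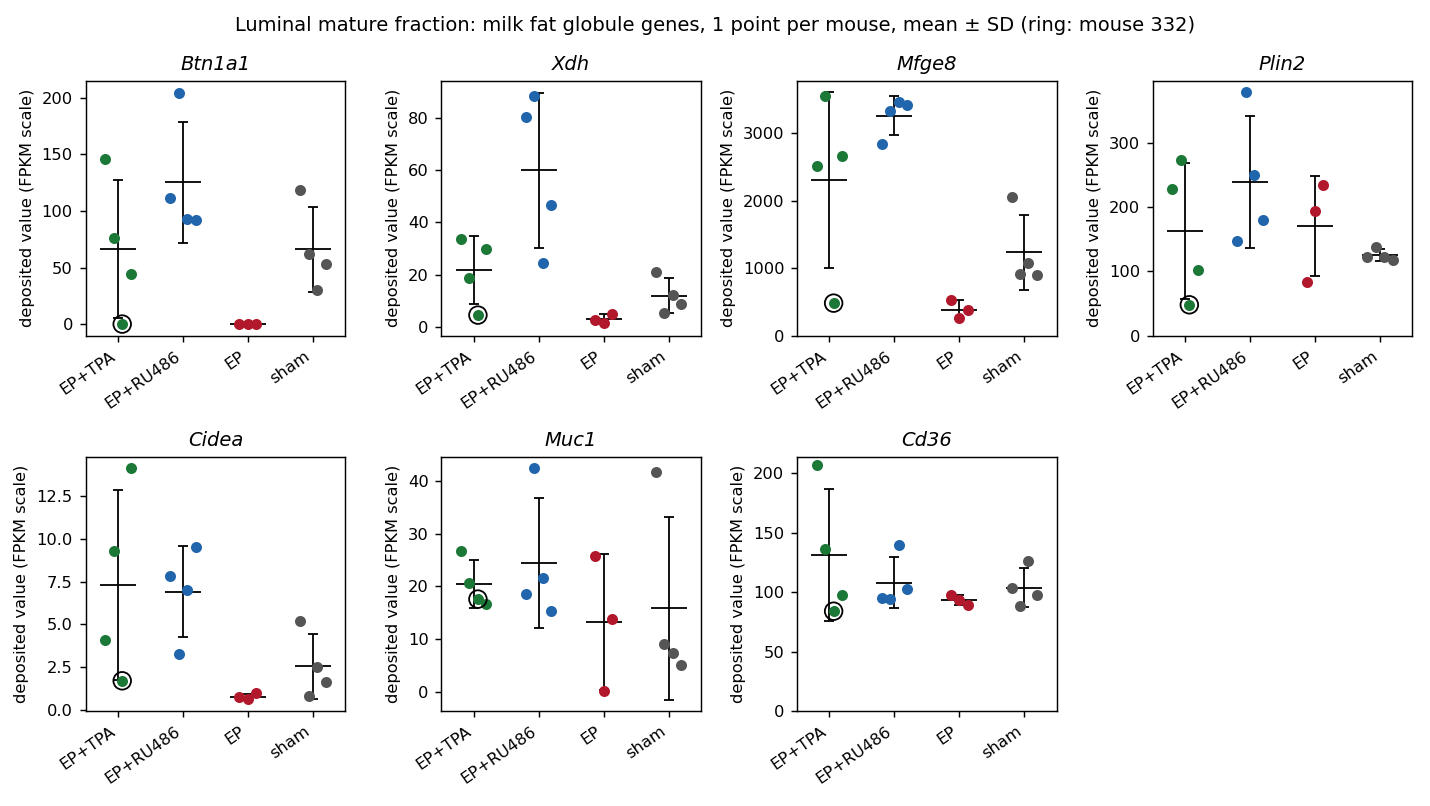
Deposited values (FPKM scale, linear axes) of the 7 milk fat globule genes in the luminal mature fraction, by treatment. Points are mice, bars are mean ± SD over 3 (EP) or 4 mice, and a ring marks mouse 332. Btn1a1 is at 0 in the 3 EP mice and in mouse 332 and at 92.3 to 205 in EP+RU486, while Cd36 has no value under 84.1.

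The markers that moved in LP moved in LM in part. In EP against sham, 4 of 15 luminal progenitor markers were lower and 1 higher. Of 15 luminal mature markers, 3 were lower and 1 higher. In EP+TPA against EP, 4 luminal progenitor markers were higher, and 9 luminal mature markers and 1 of 16 proliferation genes were lower. Without mouse 332, 10 luminal progenitor markers were higher and 1 lower, and 10 luminal mature markers and 14 of 14 proliferation genes were lower. Of 15 luminal progenitor markers, 10 were higher and 1 was lower in EP+RU486 than in EP, and 12 of 15 luminal mature markers were lower. Of 16 proliferation genes, 15 were higher in EP than in sham, and all 16 were lower in EP+RU486 than in EP. Summed luminal progenitor markers in LM were 344 to 7838 with EP+TPA, 8013 to 9493 with EP+RU486, 273 to 474 with EP and 2963 to 7989 with sham. The sham mouse with the highest sum, mouse 301, was also the highest sham mouse in Btn1a1, Xdh, Mfge8, Cidea and Muc1. Endothelial markers summed to 2.77 to 712 with EP+TPA, 226 to 648 with EP+RU486, 75.9 to 163 with EP and 55.1 to 196 with sham. Among the 15 LM libraries, Cd36 was highest in EP+TPA mouse 312, at 207, which had an endothelial sum of 659 and the highest summed level of 12 adipocyte markers, at 1176. Without mouse 332, 13 of 16 endothelial markers and 1 of 9 adipocyte markers tested were higher in EP+TPA than in EP, the contrast in which Cd36 passed. The part of these markers in the results on LM was not tested.

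The 2 antagonists were compared with each other in LP, LM and MSC after the same 14 days, at doses that the labels do not give. By limma, 0 of the 7 genes differed in any of the 3 fractions, as did 0% of all genes tested. At an unadjusted p under 0.05 the count was 0 in LP, 1 in LM and 0 in MSC. In LP the intervals of the log2 difference, EP+TPA over EP+RU486, were -0.85 to 0.70 for Btn1a1, -0.52 to 0.66 for Mfge8, -0.35 to 0.81 for Plin2 and -0.49 to 0.71 for Cidea. For Xdh in LP it was -1.48 to 0.80 and for Muc1 -0.63 to 0.74. In LM the interval was -2.03 to 0.29 for Mfge8, -1.89 to 0.28 for Plin2, -1.28 to 0.93 for Cidea and -1.99 to 1.56 for Muc1. Xdh was the gene with an unadjusted p under 0.05 in LM, at a log2 difference of -1.60 (95% interval -2.92 to -0.27, adjusted p = 0.338). Without mouse 332 the Xdh difference was -0.97 (adjusted p = 0.541). The test was made for 1 pair of drugs in each fraction, and these intervals do not show that the drugs act alike.

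In the MSC fraction, 0 of the 7 genes differed between treatments by limma in any of 6 contrasts. At an unadjusted p under 0.05 the count was 1, Muc1 in EP+TPA against EP (adjusted p = 0.624), and 0 in the other 5 contrasts. Of all 12198 genes tested, 0.0574% were called in EP+TPA against EP, 7 genes, and 0% in the others. Few libraries of a treatment lay in 1 set: the second set held 1 EP+TPA, 2 EP+RU486, 2 EP and 1 sham library. In the second set, Mfge8 was at 475 with EP+TPA, 1030.2 and 421 with EP+RU486, 372 and 601 with EP and 775 with sham. In the third set, Mfge8 was at 1859.7, 1139 and 1178 with EP+TPA, 2679 and 1124 with EP+RU486, 1909 and 1642 with EP and 2030.4, 2319 and 1204 with sham. The treatments overlapped in Mfge8 within both sets. Xdh in the third set was at 33.5 to 34.9 in the 3 EP+TPA libraries, above the other treatments, at 21.9 to 24.4 with EP+RU486, 7.32 to 28.0 with EP and 9.31 to 25.9 with sham. In the second set, Xdh was at 3.25 with EP+TPA, 2.79 and 6.36 with EP+RU486, 3.71 and 16.7 with EP and 9.97 with sham, so that EP+TPA was not the highest there. Over both sets, Xdh in EP+TPA against EP had an adjusted p of 0.845. Cidea in the third set was at 2.67 to 3.55 with EP+TPA, 2.73 and 2.74 with EP+RU486, 1.96 and 2.64 with EP and 2.29 to 13.2 with sham. Btn1a1 was at 7.51 to 8.31 in the second set and 54.4 to 63.2 in the third, and Muc1 at 3.62 to 4.38 and 15.6 to 19.5. These spans hold little above the lowest value of the set. No offset was taken off Muc1, so rescaling divided its whole value, which went from 4.38 to 8.48 in EP+TPA mouse 323. Mfge8, Xdh and Plin2 were treated likewise, and Mfge8 went from 475 to 918 in the same library. The folds of these genes in MSC can therefore carry a rescaled shift.

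Cd36 was spread widely among the MSC libraries of each treatment. In the second set it was at 46.9, 50.8 and 55.8 in mice 323, 322 and 324, and at 200.2, 248 and 715 in mice 308, 305 and 306. The first 3 had endothelial sums of 67.8 to 209 and the other 3 of 1888 to 2410.1. In the third set Cd36 was listed at 0 in sham mouse 326 and EP mouse 327, where the endothelial sums were 107 and 0 and the adipocyte sums 2.46 and 0. The other 8 libraries of the third set had Cd36 at 74.6 to 439, endothelial sums of 773 to 1975 and adipocyte sums of 272 to 4470.3. Pecam1, an endothelial marker, was at 0 in mouse 327 and 4.48 in mouse 326, and at 75.1 to 242 in the other 8.

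**Figure D5:**
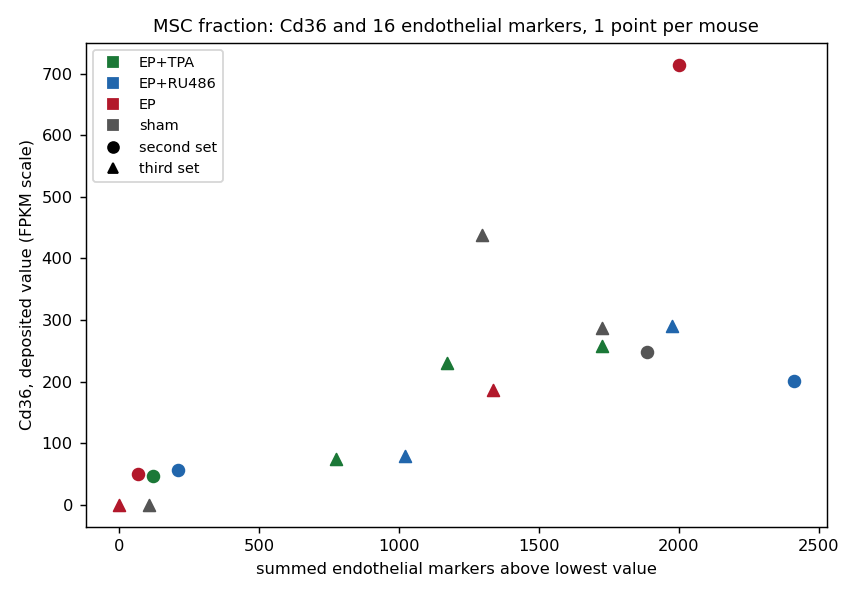
Deposited Cd36 (FPKM scale) in the 16 MSC libraries against the summed level of 16 endothelial markers above their lowest values. Colours are treatments, and circles and triangles are MSC libraries of the second set and of the third set. The 5 libraries with sums up to 209 have Cd36 at 55.8 or lower, and the highest value, 715, is EP mouse 306 with a sum of 2000.3.

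The label of the MSC fraction was checked against 16 basal markers. Krt14, a keratin of basal cells, was listed at 0 in 2 of 4 EP+RU486 libraries and 1 of 4 EP+TPA libraries. Basal sums ran from 6.42 in EP+RU486 mouse 313 to 5403 in EP+TPA mouse 323. Mouse 306, with the highest Cd36, had the highest adipocyte sum (10201). It also had the highest Plin2 (129), Cidea (7.80) and Xdh (16.7) among the MSC libraries of the second set. The part of these other cells in the MSC values was not tested.

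MSC could be set against LP in the 6 mice with both fractions in the second set. The main fit had a term for treatment and none for mouse, so it did not use the pairing. Btn1a1, Mfge8 and Muc1 were lower in MSC than in LP, 3 of the 7 genes, where 16.2% of the 11931 genes tested were lower and 22.4% higher. All 3, and Plin2, were lower in MSC in 6 of 6 mice. The share of all genes that lay on 1 side in 6 of 6 mice was not computed. Mfge8 averaged 612 ± 251 in MSC and 2093 ± 1043 in LP (SD, n = 6 each), with a log2 fold of -1.04 ± 0.28 (SE, adjusted p = 0.0167). Muc1 averaged 3.87 ± 0.26 in MSC and 21.1 ± 2.80 in LP (SD, n = 6 each), with a log2 fold of -1.62 ± 0.17 (SE, adjusted p = 9.9e-05). Btn1a1 averaged 7.71 ± 0.30 in MSC and 82.0 ± 75.8 in LP (SD, n = 6 each), with a log2 fold of -2.57 ± 0.47 (SE, adjusted p = 0.00248). Its MSC values, 7.51 to 8.31, lay at or near its offset of 7.51. They can be shift and not expression, and the size of the fold depends on that offset. The Mfge8 call was lost without mouse 308 or without mouse 324. For Mfge8 and Muc1 no offset was taken off, so their folds come from whole values that were rescaled.

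Cd36 was the 1 gene of the 7 above LP in MSC in 6 of 6 mice, at 219 ± 257 in MSC and 44.9 ± 0.75 in LP (SD, n = 6 each). Its log2 fold was 1.67 ± 0.64 (SE, adjusted p = 0.0633), and it passed with the mouse as a replicate block (adjusted p = 0.0412), which made 4 genes called. In the main fit, without that block, 12 of 16 endothelial markers and 2 of 10 adipocyte markers tested were higher in MSC. Xdh (adjusted p = 0.0809), Plin2 (adjusted p = 0.0625) and Cidea (adjusted p = 0.396) did not pass, but all 3 were called as lower in MSC without EP mouse 306. Without rescaling, 6 of the 7 genes were called, with Xdh (log2 fold -2.02, adjusted p = 0.0146) and Plin2 (-1.49, adjusted p = 0.00231) lower and Cd36 (1.51, adjusted p = 0.0472) higher in MSC. The scaling factors were 0.517 to 0.889 for these MSC libraries and 0.971 to 1.27 for the LP libraries.

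Genes with other parts in milk production moved in LP with the globule genes, but not all of them. The counts below stand beside 15.6% lower and 17.5% higher among all genes tested in EP against sham, 7.51% higher and 11% lower in EP+TPA against EP, and 8.97% higher and 12.2% lower in EP+RU486 against EP. Of 11 milk protein genes tested, 5 were lower and 0 higher in EP than in sham, among them Ltf (lactoferrin), with a log2 fold of -3.35 ± 0.34 (SE, adjusted p = 4.66e-06). Ltf and Csn3 were also counted among the luminal progenitor markers. Of 15 other genes of the globule membrane and apical surface, 8 were lower and 0 higher. They included Btn2a2, a relative of butyrophilin (log2 fold -1.70 ± 0.20 SE, adjusted p = 1.39e-05), and the water channel Aqp5 (-1.86 ± 0.28 SE, adjusted p = 0.000143). Of 14 genes of the droplet coat and its turnover, 4 were lower and 0 higher, including the lipase Pnpla2 at -0.95 ± 0.17 (SE, adjusted p = 0.000758).

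Genes of milk lipid synthesis and uptake were split in LP: 7 of 27 were higher in EP than in sham and 8 were lower, with a median log2 fold of 0.18. Fasn, the fatty acid synthase, was higher at 1.11 ± 0.15 (SE, adjusted p = 4.94e-05). The desaturase Scd2 was higher at 2.15 ± 0.34 (SE, adjusted p = 0.000264). Me1, the malic enzyme that supplies NADPH, was lower at -1.58 ± 0.20 (SE, adjusted p = 3.51e-05). Of 13 regulators of alveolar cells, 4 were higher and 5 lower: Stat5a, the transcription factor downstream of the prolactin receptor, was higher at 1.76 ± 0.20 (SE, adjusted p = 9.52e-06). Cish, a feedback inhibitor of that pathway, was lower at -1.17 ± 0.17 (SE, adjusted p = 0.000107), and Cebpb was lower at -2.12 ± 0.41 (SE, adjusted p = 0.00132).

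With the antagonists in LP, 5 of 15 other globule membrane and apical genes were higher than with EP and 0 lower, with either drug. Enpp3, a nucleotide pyrophosphatase of the cell surface, was among them, with a log2 fold of 1.88 ± 0.37 with EP+TPA (SE, adjusted p = 0.0024) and 1.99 ± 0.37 with EP+RU486 (SE, adjusted p = 0.00158). Of 11 milk protein genes, 5 were higher and 1 lower with EP+TPA, and 5 higher and 3 lower with EP+RU486. Csn3, kappa-casein, had log2 folds of 3.44 ± 0.47 with EP+TPA (SE, adjusted p = 0.000143) and 3.36 ± 0.47 with EP+RU486 (SE, adjusted p = 0.000193). In lipid synthesis and uptake, 4 were higher and 7 lower of 27 with EP+TPA, and 6 higher and 7 lower with EP+RU486. Lpl, the lipase that frees fatty acids from circulating fat, was lower with both, at -0.74 ± 0.11 with EP+TPA (SE, adjusted p = 0.000242) and -0.79 ± 0.11 with EP+RU486 (SE, adjusted p = 0.000148). Me1 was higher with both, at 1.21 ± 0.20 with EP+TPA (SE, adjusted p = 0.000685) and 1.25 ± 0.20 with EP+RU486 (SE, adjusted p = 0.00055).

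In LM, 9 of 28 genes of lipid synthesis and uptake were higher in EP than in sham and 1 was lower, beside 10.3% higher and 9.41% lower among all genes tested. Scd2 was higher at 3.87 ± 0.61 (SE, adjusted p = 0.00117), and Lpl at 1.85 ± 0.44 (SE, adjusted p = 0.0105). With EP+RU486 against EP in LM, 4 of these 28 were higher and 4 lower, 6 of 11 milk protein genes were higher and 0 lower, and 3 of 16 other membrane and apical genes were higher and 0 lower. Among all genes tested, 8.81% were higher and 9.28% lower in that contrast. Dgat2, which makes triglyceride, was lower at -3.64 ± 0.54 (SE, adjusted p = 0.00127).

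Over the 12 group means, centred within each fraction, Mfge8 and Xdh ran most alike among the 7 genes (Pearson r = 0.962), and Mfge8 and Btn1a1 next (0.907). Plin2 had r of 0.499 to 0.718 with Btn1a1, Xdh, Mfge8, Cidea and Muc1, and Cd36 r of -0.08 to 0.346 with the other 6. Of 11155 genes tested in all 3 fractions, the most like Btn1a1 were Lipa (r = 0.997), Bglap3 (0.994) and Lalba (0.990). The most like Mfge8 were Hivep3 (0.993), Ctsc (0.986) and Ctdsp2 (0.985), and the most like Plin2 Tmem52 (0.935), Lao1 (0.922) and Slc5a1 (0.909). Those most like Cd36 were Cd300lg (0.988), Fabp4 (0.986) and Gngt2 (0.966). These values describe 12 means that share mice between fractions, and the highest of many genes are high by selection. Centring was by fraction and not by set, and the MSC groups mix libraries of different sets in unequal shares. In MSC, deposited Btn1a1 was at 7.51 to 8.31 in the set shared with LP and at 54.4 to 63.2 in the other set. Mfge8 was at 372 to 1030.2 and at 1124 to 2679 in these sets. The r values can therefore carry differences between sets, and the part of these differences was not tested.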

How the data were processed

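RNA of flow-sorted LM, LP and MSC cells of individual mice was amplified as full-length complementary DNA and read as 75 b pairs, per the labels' protocols. STAR, Cufflinks, DESeq2 and build mm9 were used, per the submitters' processing notes, without versions or order. The values deposited by the authors are on the scale of FPKM although the table is titled as read counts. They are not whole numbers, and the shift by gene within 3 sets of libraries was inferred from the values. Of 22007 symbols, 27 resembled dates and were left out.

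Libraries of a set were brought to a common level with median-ratio factors between 0.517 and 1.31. These divided what remained of a value once any offset of the gene was taken off. The offset was then added back, so folds of genes near it are understated. The offset was the lowest value of the set where at least 2 libraries shared it or at least 40% of libraries lay within 5% of the gene's range above it, a rule chosen after the values were seen. Where neither held, no offset was taken off and the whole value was divided. This was so for Cd36 in LM and for Muc1 in all 3 sets. Genes with a value of at least 1 and above the offset in at least 3 libraries were tested with limma 3.58.1 in R 4.3.3 (empirical Bayes, trend, robust) on log2(value + 1), which understates folds of low genes. The fits of MSC had a term for the set. P-values were adjusted by Benjamini-Hochberg, with 0.05 as the threshold; the test was tried on simulated data. Replicates are separate mice. Overlap of groups and direction in each mouse were examined for the 7 genes only, with no share over all genes to set beside them. The 7 genes, the gene lists and the tests were chosen with earlier results of these data known. All 7 genes are named, with up to 3 genes of smallest p from a list and the 3 genes most like a member; the markers Krt14 and Pecam1 stand beside results, and Foxa1 and, as a marker, Prlr were chosen after their values were seen. Btn1a1 and Xdh have no promoter in the RefSeq table used. Promoters of the 7 genes on chromosome 18 were left out, so that of Cidea was not searched. The mice of MSC and LP are paired by their mouse number in the labels, but the main fit of MSC against LP had no term for mouse. Treatments used different mice. List sums are deposited values above each gene's lowest value in its set. Some lists share genes, such as Prlr in the luminal mature markers and the alveolar regulators, so their counts are not independent. Python 3.11.15 with pandas 2.3.3 was used for tables.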

Additional observations from a re-analysis of the deposited data

Results flagged for a closer look

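Among 49 sets of 4 values, each 1 gene in 1 group of LM or LP, 4 sets had a value far from the other libraries of its group, and chance alone gives about 1 in 20. Btn1a1 was at 205 in the EP+RU486 library of LM from mouse 313, against 92.3 to 111 in the other 3. Btn1a1 was at 52.1 in the EP library of LP from mouse 311, against 9.77 to 16.3 in the other 3. Mfge8 was at 2061 and Muc1 at 41.7 in the sham library of LM from mouse 301, against 895 to 1077 and 5.23 to 9.09 in the other 3 sham libraries. MSC groups span 2 sets of libraries and were not examined for this.

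Plin2 differed between EP+RU486 and sham in opposite directions in the luminal fractions: every EP+RU486 value was higher than every sham value in LM (log2 fold 0.84, adjusted p = 0.258) and every one was lower in LP (log2 fold -1.28, adjusted p = 0.00723). The difference between the fractions was not tested.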

How the results depend on the processing

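The 6 calls of EP against sham and the 4 of each antagonist against EP in LP, and the 4 of EP+RU486 against EP in LM, held in the other settings; the alternative offset rule was added after the values were seen. Numbers of genes called changed as follows. Without rescaling they were 3 in LM EP+TPA against EP, 0 in LP EP+TPA against sham, 1 in LP EP+RU486 against sham and 6 in MSC against LP (Xdh, Plin2 and Cd36 added). Without the filter they were 1 in LM EP against sham and 0 in LP EP+TPA against sham. With a pseudocount of 0.1 there were 3 in LM EP+TPA against EP. With 2 groups fitted alone there were 0 in LM EP+TPA against EP, 4 in LM EP+RU486 against sham, 3 in LM EP against sham (Xdh added) and 3 in LP EP+RU486 against sham (Muc1 added). The causes were not tested. Mouse as a replicate block gave 4 in MSC against LP, with Cd36 added, and changed no other call there. No paired analysis was possible between treatments because they used different mice. The added offset rule also called Cd36 there.

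Leaving out 1 library at a time, the numbers ran from 1 to 2 in LM EP against sham, 0 to 5 in EP+TPA against EP, 0 to 2 in EP+TPA against sham and 0 to 3 in EP+RU486 against sham. In LP they ran from 4 to 5 for each antagonist against EP, 0 to 1 for EP+TPA against sham and 1 to 2 for EP+RU486 against sham. MSC against LP ran from 2 to 6. Signs turned for some log2 folds, none of them called; with all libraries, Btn1a1 was at -1.17 in LM EP+TPA against sham and Muc1 at -0.86 in LM EP against sham, and the others lay nearer to 0. In LM these were Plin2 (EP against sham -0.15 to 0.59, EP+TPA against EP -0.56 to 0.45, EP+TPA against sham -0.30 to 0.57), Muc1 (EP against sham -1.73 to 0.41), Btn1a1 (EP+TPA against sham -2.003 to 0.42), and, between the antagonists, Cidea (-0.59 to 0.30) and Muc1 (-0.37 to 0.074). In LP they were Mfge8 (EP+TPA against sham -0.15 to 0.10, EP+RU486 against sham -0.22 to 0.029), Xdh (EP+TPA against sham -0.39 to 0.38, EP+RU486 against sham -0.048 to 0.80) and, between the antagonists, Btn1a1 (-0.29 to 0.15), Cidea (-0.15 to 0.38), Mfge8 (-0.055 to 0.19) and Muc1 (-0.040 to 0.12). Without rescaling Mfge8 in LP was 0.11 with EP+TPA and 0.10 with EP+RU486 against sham, and Muc1 between the antagonists was -0.0040. Read depth is unknown, so precision near an offset could not be judged.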
